A study of Mus musculus with 9 samples.

Results

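Cholesterol is made, taken up and exported by a small and well defined set of genes, and 31 of them were followed here in pancreatic tumour cells that had shared a matrix with fibroblasts in different states. The 31 genes were chosen by name as those of the pathway, out of 41457 gene symbols measured, and fell into 19 genes of synthesis, 8 of regulation, uptake and storage, and 4 of export under the liver X receptors (LXR). Messenger RNA came from PancOVA cells, a mouse pancreatic tumour line, cultured for 48 h in matrigel together with pancreatic stellate cells, the resident fibroblasts of the pancreas. Stellate cells carrying CD90.1 were first made quiescent in matrigel under low-serum medium in every group. They then stayed quiescent (qPSC, the control), were primed for 48 h with TGF-β1 at 2 ng/ml (myCAF, a contractile state), or were primed for 48 h with conditioned medium for a state the labels call Tc17-iCAF (iCAF, an inflammatory state). A proliferation dye on the tumour cells served to sort them, and each of the 3 groups gave 3 libraries. One tumour line stands behind all libraries. Nothing in the labels says whether replicates were separate cultures, so the spread behind the p-values may be a technical one.

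In the pathway, acetyl units are condensed to mevalonate, phosphorylated and decarboxylated to isoprene units, joined to farnesyl diphosphate and then to squalene, and closed into lanosterol, which several further enzymes trim to cholesterol. The transcription factors of the SREBP family (Srebf1, Srebf2) switch these enzymes on when the endoplasmic reticulum is short of sterol. Scap carries them to the Golgi for cleavage, and the Insig proteins hold Scap back when sterol is plentiful. When oxidised sterols accumulate, LXR turns on the exporters Abca1 and Abcg1 and the ubiquitin ligase Mylip.

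Promoters of 4 genes are shown because these genes cover the early steps (Hmgcs1, Mvd), a late step (Nsdhl) and the feedback arm (Insig1). Each runs from 250 bases before to 50 bases after the gene's start, 5′ to 3′ on the gene's strand, from RefSeq on GRCm38.p6. Capitals mark 4 motifs searched on both strands: the sterol regulatory element TCACNCCAC, the NF-Y box CCAAT, the GC box GGGCGG and the E-box CACGTG. Hmgcs1, which encodes the synthase that makes HMG-CoA, lies at chr13:119690101-119690400 (+), Mvd, the decarboxylase that yields isopentenyl diphosphate, at chr8:122443373-122443672 (−), Nsdhl, a dehydrogenase that helps remove methyl groups from lanosterol's products, at chrX:72918271-72918570 (+), and Insig1 at chr5:28071162-28071461 (+).
Hmgcs1: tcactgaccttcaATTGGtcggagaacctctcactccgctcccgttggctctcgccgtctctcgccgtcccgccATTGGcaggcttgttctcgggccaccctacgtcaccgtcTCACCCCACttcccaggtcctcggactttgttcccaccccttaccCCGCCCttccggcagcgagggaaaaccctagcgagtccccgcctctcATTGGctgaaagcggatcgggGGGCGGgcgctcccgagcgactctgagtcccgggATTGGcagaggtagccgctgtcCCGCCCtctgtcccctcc
Mvd: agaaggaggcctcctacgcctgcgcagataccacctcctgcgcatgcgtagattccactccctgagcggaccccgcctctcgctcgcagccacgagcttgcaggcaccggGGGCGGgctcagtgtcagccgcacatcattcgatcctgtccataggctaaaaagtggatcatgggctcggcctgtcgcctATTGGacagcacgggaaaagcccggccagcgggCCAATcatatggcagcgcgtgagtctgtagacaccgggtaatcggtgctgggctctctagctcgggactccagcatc
Nsdhl: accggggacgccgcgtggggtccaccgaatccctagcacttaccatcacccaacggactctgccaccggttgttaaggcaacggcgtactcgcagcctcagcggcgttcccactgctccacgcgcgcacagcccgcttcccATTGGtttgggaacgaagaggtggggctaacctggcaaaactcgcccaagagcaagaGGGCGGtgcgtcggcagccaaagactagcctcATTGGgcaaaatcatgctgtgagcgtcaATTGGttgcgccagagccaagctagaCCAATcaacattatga
Insig1: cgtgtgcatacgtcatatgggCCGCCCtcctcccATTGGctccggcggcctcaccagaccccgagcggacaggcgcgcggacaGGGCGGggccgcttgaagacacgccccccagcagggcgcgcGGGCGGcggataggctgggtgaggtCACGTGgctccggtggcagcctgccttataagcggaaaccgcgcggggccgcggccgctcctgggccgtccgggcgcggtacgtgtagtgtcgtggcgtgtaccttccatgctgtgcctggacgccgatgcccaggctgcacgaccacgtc

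Promoters were found for 25 of the 31 genes, in 33 windows since some genes had several. A gene was counted, here and among tested genes, where any of its windows held a match. The sterol regulatory element, read in this strict form, matched in 1 of the 25, Hmgcs1, where it began 137 bases before the start. Among 9007 tested genes with a promoter, 1.332% held a match. CCAAT was present in 21 of the 25 genes, in 15 of 16 synthesis genes and in 43.866% of tested genes. Hmgcs1 and Nsdhl each held 4 copies, Mvd held 2 and Insig1 held 1. GGGCGG matched in 22 of the 25 against 70.712% of tested genes, and CACGTG in 6 of the 25, Insig1 among them, against 12.079%. In the 4 promoters shown, no matched motif shares letters with another. These matches describe letters in a short window and not sites in use.

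Values are TPM, relative transcript levels, which scale each gene by its length and each library by its total. Low values came in steps worth 1 read, which put the depth at 38870594 to 45317252 reads a library, and each synthesis gene was read at least 1535 times in every library. A gene was tested where 3 or more libraries held 1 TPM or more, which left 11704, and 30 of the 31 sterol genes passed, all but Abcg1. Krt8 and Krt18, keratins of simple epithelia, lay at 744 to 830 and 806 to 956 TPM, while the epithelial adhesion genes Epcam and Cdh1 did not exceed 0.0275 TPM in any library. One library, iCAF replicate 3, stood apart: ribosomal protein genes took 22.0% of its TPM against 14.8% to 15.7% in the other 8, and its median log2(TPM + 1) was 3.96 against 4.35 to 4.47. Results are therefore given with and without it. Because these are bulk samples, fewer cells with a transcript and less of it per cell cannot be told apart.

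In 16 of the 19 synthesis genes every library of tumour cells grown with myCAF lay above every library grown with qPSC. The same held for 11.3% of tested genes. Of the 19, 0 passed the test with all libraries (limma, smallest adjusted p = 0.141), and 0% of tested genes were called higher. Without iCAF replicate 3, 12 were called higher, against 1.03% of tested genes. The 19 genes summed to 3523 ± 200.1 TPM (SD, n = 3) in qPSC libraries, or 0.352% of all transcripts. The iCAF sum was 3770.0 ± 165 TPM, 0.377% of the total, and the myCAF sum 4469 ± 78.0 TPM, 0.447%. The 3 myCAF libraries, at 4417 to 4558 TPM, lay above every iCAF library, at 3642 to 3957 TPM, and every qPSC library, at 3293 to 3652 TPM. Of the 19 genes, 16, 18 and 18 exceeded the highest qPSC library in myCAF replicates 1, 2 and 3, and 12, 14 and 7 did so in iCAF replicates 1, 2 and 3. The share of all tested genes doing so in each library was not counted, so these counts have no background.

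**Figure D1:**
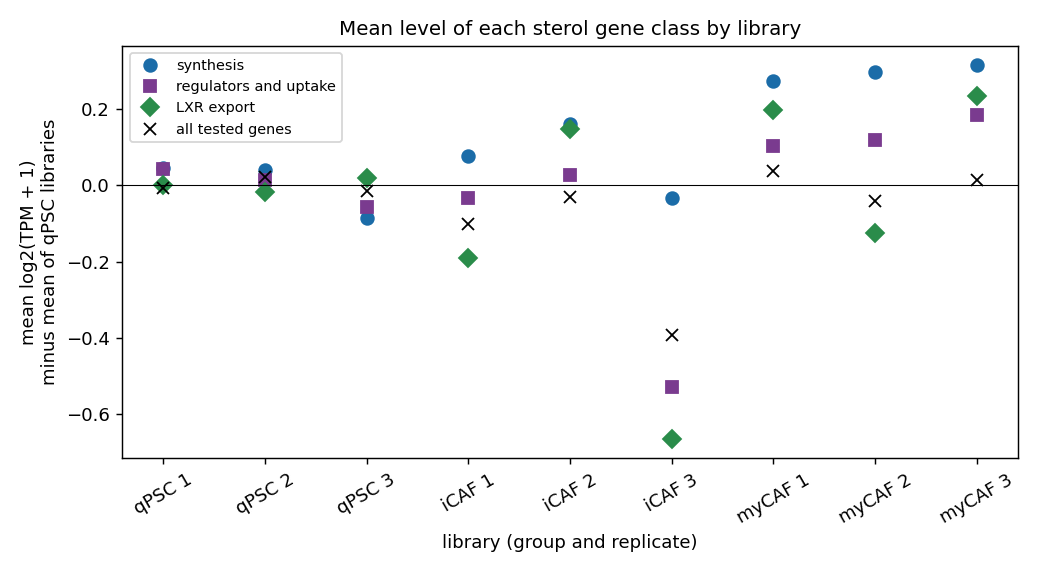
Mean log2(TPM + 1) of each gene class in each library, minus its mean over the 3 qPSC libraries (vertical axis), with crosses for all tested genes. The synthesis points of myCAF lie between 0.27 and 0.32, above every other library, and in iCAF replicate 3 all classes and the cross lie below 0.

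With all 9 libraries in the fit, no member passed in any comparison (limma on log2(TPM + 1), adjusted p under 0.05). The background was equally empty for higher calls: 0% of tested genes were called higher in myCAF than in qPSC and 0% lower. At an unadjusted p under 0.05, 15 of the 30 tested members were higher in myCAF and 0 lower, against 312 higher and 441 lower of all 11704 genes. The groups did not overlap, with every myCAF library above every qPSC library, for 20 of the 30 members, against a background of 11.3% of tested genes, and the reverse held for 0 members, against 12.5%. By class, 16 of 19 synthesis genes, 4 of 8 regulator and uptake genes and 0 of 3 tested export genes stood wholly above qPSC. Limma-voom, run on the implied reads, called 0 members too.

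Leaving out iCAF replicate 3 changed no myCAF or qPSC value and lowered the shared error. The median standard error of the members' difference went from 0.11 to 0.06 on the log2 scale, and 15 of 30 members were then called higher in myCAF than in qPSC and 0 lower, against 1.03% of tested genes called higher and 1.79% lower. These 15 were 12 synthesis genes, along with Insig1, Insig2 and Stard4. With only the 6 myCAF and qPSC libraries, 14 members were called, Hmgcs1 joining and Fdft1 and Insig1 leaving, against 1.33% of tested genes called higher and 1.9% lower. The median log2 fold change of the 19 synthesis genes was 0.33 in each of these fits, where the median over all tested genes was 0.01.

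**Figure D2:**
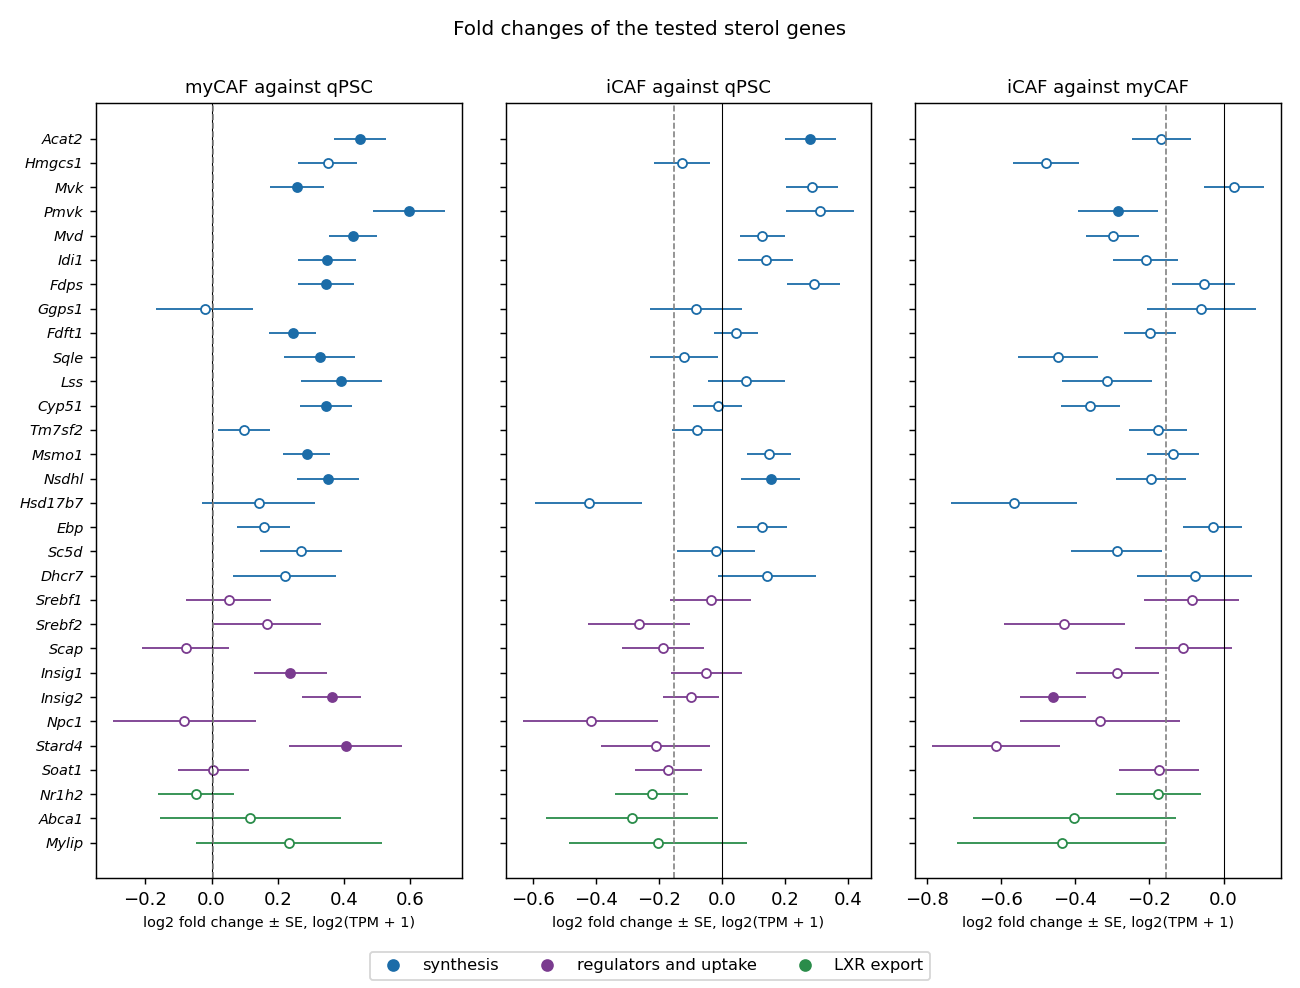
Log2 fold change on the log2(TPM + 1) scale (horizontal axis, bars ± SE, all 9 libraries) of the 30 tested sterol genes in each comparison, coloured by class. Filled points passed the test without iCAF replicate 3, and the dashed line is the median of all tested genes. In myCAF against qPSC 15 points are filled, 12 of them synthesis genes, against 2 in each comparison of iCAF.

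The early steps, from acetyl units to farnesyl diphosphate, are held by 7 genes. All 7 stood wholly above qPSC in myCAF, against 11.3% of tested genes. Acat2, the thiolase that joins the first acetyl units, lay at 373, 366 and 337 TPM in qPSC, 453, 466 and 393 in iCAF, and 479, 501 and 489.6 in myCAF. All 3 groups were thus apart, in the order qPSC, iCAF, myCAF. For myCAF against qPSC its log2 fold change was 0.45 ± 0.08 (SE), or 1.37-fold (limma, adjusted p = 0.146, and 0.0117 without iCAF replicate 3). It was also 1 of 2 members called higher in iCAF than in qPSC without iCAF replicate 3, at 0.36 ± 0.05 on the log2 scale (limma, adjusted p = 0.0164). A close neighbour and relative, Acat3, was listed at 0.335 to 1.84 TPM, so few of the reads were assigned to it.

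Hmgcs1 gave 516, 506 and 447 TPM in qPSC, 408, 495 and 444 in iCAF, and 633, 595 and 646 in myCAF. Here iCAF and qPSC overlapped while myCAF was above both. The log2 fold change of myCAF over qPSC was 0.35 ± 0.09, or 1.28-fold (limma, adjusted p = 0.261, and 0.0528 without iCAF replicate 3). In iCAF it was 1.39-fold lower than in myCAF, a log2 fold change of -0.48 ± 0.09 (limma, adjusted p = 0.0938, and 0.0596 without that library).

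Pmvk, a kinase that adds the second phosphate to mevalonate, had the largest myCAF difference of the 30 tested members. Its values were 92.7, 88.2 and 87.8 TPM in qPSC, 95.5, 111 and 131 in iCAF, and 141, 129 and 138 in myCAF. The iCAF libraries were the most scattered, with replicate 3 inside the myCAF range and replicate 1 close to qPSC. The myCAF level was 1.51-fold that of qPSC, 0.60 ± 0.11 on the log2 scale (limma, adjusted p = 0.146, and 0.0117 without iCAF replicate 3). Without that library it was also lower in iCAF than in myCAF, with a log2 fold change of -0.40 ± 0.07 (limma, adjusted p = 0.049).

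Mvd measured 205, 202 and 189 TPM in qPSC, 206, 230.0 and 216 in iCAF, and 272, 255 and 275 in myCAF. The 3 groups did not overlap, though iCAF replicate 1 was barely above qPSC. Its myCAF over qPSC difference was 0.43 ± 0.07 on the log2 scale, or 1.34-fold (limma, adjusted p = 0.141, and 0.0144 without iCAF replicate 3). Mvk, the kinase for the first phosphate, stood at 88.8, 87.2 and 81.0 TPM in qPSC, 103, 98.1 and 114 in iCAF, and 99.8, 108 and 101 in myCAF. It was the one synthesis gene whose mean was highest in iCAF, and iCAF and myCAF overlapped. Against qPSC it was 1.2-fold in myCAF, 0.26 ± 0.08 on the log2 scale (limma, adjusted p = 0.424, and 0.0365 without iCAF replicate 3).

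Idi1, which isomerises the isoprene unit, gave 255, 276 and 222 TPM in qPSC, 283, 287 and 258 in iCAF, and 323, 319 and 315 in myCAF. The myCAF libraries were close together and above the other 6. The difference from qPSC was 0.35 ± 0.09 on the log2 scale, or 1.27-fold (limma, adjusted p = 0.253, and 0.0377 without iCAF replicate 3). Fdps, which builds farnesyl diphosphate, gave 446, 432 and 412 TPM in qPSC, 494, 496 and 598 in iCAF, and 533, 563 and 545 in myCAF. Both iCAF and myCAF lay wholly above qPSC and overlapped each other, since iCAF replicate 3 held the highest value of all. In myCAF it was 1.27-fold the qPSC level, 0.35 ± 0.08 on the log2 scale (limma, adjusted p = 0.235, and 0.0119 without iCAF replicate 3). Ggps1, which branches off to geranylgeranyl diphosphate for protein prenylation, did not follow: its means were 27.1 ± 2.45, 25.9 ± 5.54 and 26.7 ± 0.605 TPM (SD, n = 3) in qPSC, iCAF and myCAF, with overlap in each comparison.

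**Figure D3:**
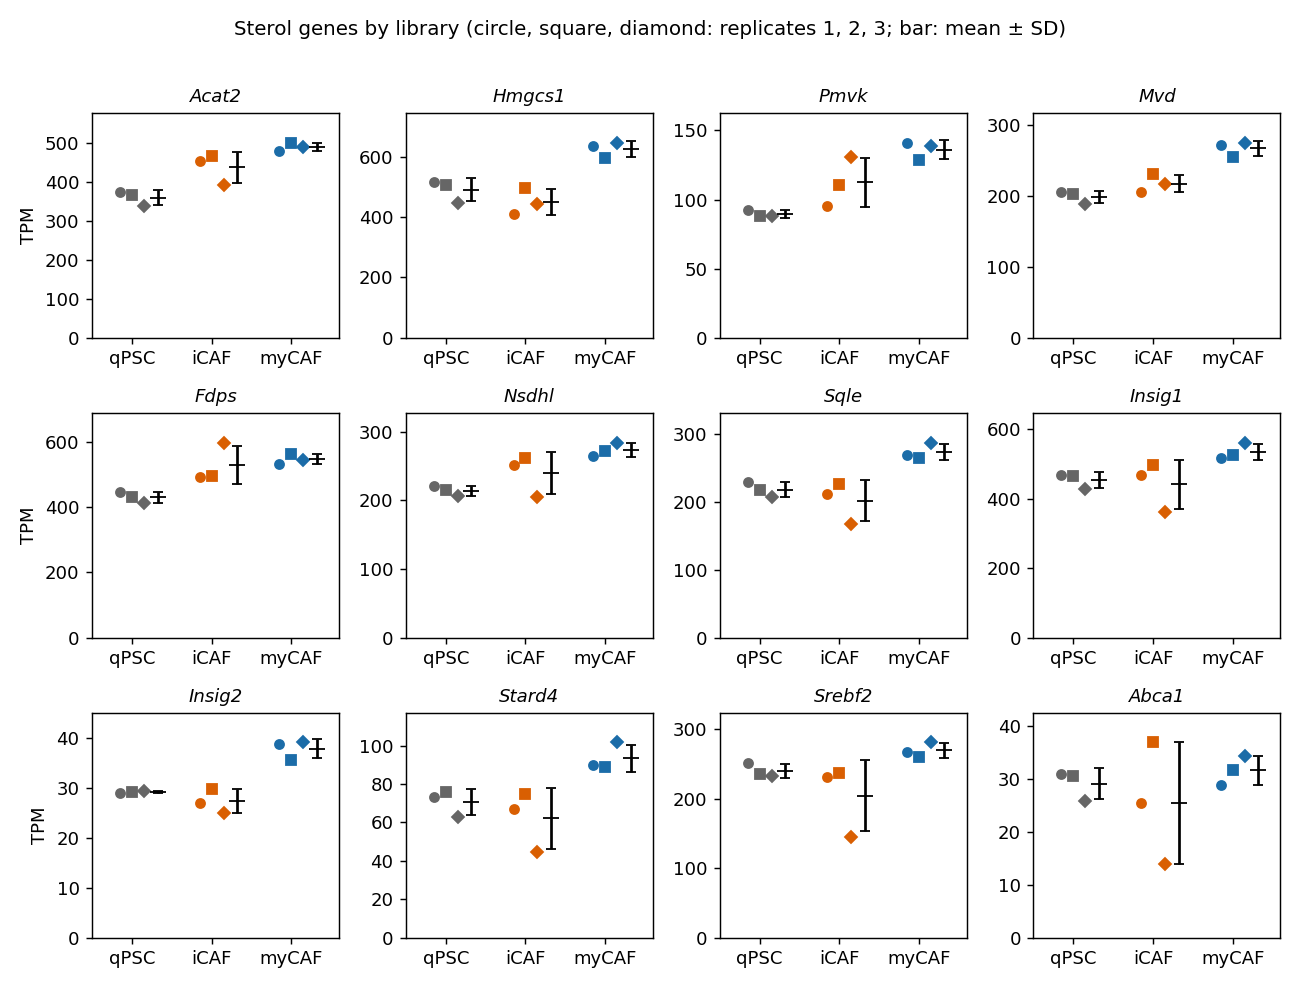
TPM (vertical axis, from 0) of 12 sterol genes in each library by group, with circle, square and diamond for replicates 1, 2 and 3 and a bar for the mean ± SD. The myCAF points lie above all qPSC points in 11 panels, and Abca1 overlaps in all 3 groups.

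Downstream, 11 genes carry squalene to cholesterol, and 9 of them stood wholly above qPSC in myCAF, against 11.3% of tested genes. Fdft1, squalene synthase, lay at 178, 178 and 162 TPM in qPSC, 183, 179 and 172 in iCAF, and 195, 208 and 210.1 in myCAF. The myCAF values were above all others. They exceeded qPSC by 0.25 ± 0.07 on the log2 scale, or 1.19-fold (limma, adjusted p = 0.357, and 0.0412 without iCAF replicate 3). Of its exon bases in GENCODE M21, 18.31% overlap Ctsb on the opposite strand, a gene at 284 to 389 TPM, and whether the counting used strand is not given in the sources used here.

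Sqle, squalene epoxidase, an oxygen-dependent control point of the pathway, lay at 229.5, 219 and 207 TPM in qPSC, 212, 227 and 168 in iCAF, and 269.9, 265 and 288 in myCAF. iCAF replicate 3 was the lowest library and the other iCAF values sat within the qPSC range. The myCAF level was 1.25-fold that of qPSC, 0.33 ± 0.11 on the log2 scale (limma, adjusted p = 0.49, and 0.022 without iCAF replicate 3). Lss, which closes the rings to lanosterol, gave 59.3, 58.6 and 52.8 TPM in qPSC, 64.0, 69.1 and 48.9 in iCAF, and 72.5, 74.7 and 77.6 in myCAF. Again iCAF replicate 3 was lowest, below all qPSC libraries, while the other iCAF libraries were above them. For myCAF the log2 fold change was 0.39 ± 0.12, or 1.31-fold (limma, adjusted p = 0.423, and 0.0169 without iCAF replicate 3).

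Cyp51, which removes the first methyl group of lanosterol, had 376, 372 and 334 TPM in qPSC, 349, 386 and 337 in iCAF, and 447, 445 and 482 in myCAF. The iCAF and qPSC ranges overlapped and myCAF was above both. The myCAF difference from qPSC was 0.35 ± 0.08 on the log2 scale, or 1.27-fold (limma, adjusted p = 0.216, and 0.0284 without iCAF replicate 3). Msmo1, an oxidase of the later methyl groups, had 225, 225 and 202 TPM in qPSC, 231, 244 and 248 in iCAF, and 258, 263 and 275 in myCAF. The 3 groups were apart, and with all libraries this was the one gene of the squalene-to-cholesterol steps with iCAF wholly above qPSC. In myCAF it was 1.22-fold the qPSC level, 0.29 ± 0.07 on the log2 scale (limma, adjusted p = 0.241, and 0.0304 without iCAF replicate 3).

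Nsdhl, which works with Msmo1, lay at 221, 215 and 206 TPM in qPSC, 252, 262 and 205 in iCAF, and 264, 272 and 284 in myCAF. In 2 iCAF libraries it was above qPSC and in replicate 3 below. Its myCAF over qPSC difference was 0.35 ± 0.09 on the log2 scale, or 1.28-fold (limma, adjusted p = 0.295, and 0.0123 without iCAF replicate 3). Without iCAF replicate 3 it was the other member called higher in iCAF than in qPSC, by 0.26 ± 0.05 on the log2 scale (limma, adjusted p = 0.0418). Hsd17b7, a ketoreductase that partners the demethylation, had means of 90.1 ± 8.38, 68.5 ± 17.9 and 99.3 ± 0.606 TPM in qPSC, iCAF and myCAF (SD, n = 3), and Sc5d, the desaturase of the late ring, had 130.4 ± 10.6, 129.9 ± 23.1 and 157 ± 4.75. Ebp, an isomerase, had 58.0 ± 1.84, 63.7 ± 5.00 and 64.8 ± 1.41 TPM in the same order. In these 3 genes every myCAF library was above every qPSC library, at limma adjusted p of 0.35, 0.0849 and 0.158 without iCAF replicate 3. Tm7sf2, a reductase, and Dhcr7, a reductase of the final steps, overlapped between myCAF and qPSC, with means of 33.9 ± 1.25 and 36.3 ± 1.34 TPM for Tm7sf2 and 39.6 ± 1.78 and 46.5 ± 5.36 for Dhcr7.

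By arm, the 7 genes up to farnesyl diphosphate had a median log2 fold change of 0.35 in myCAF over qPSC and 0.28 in iCAF over qPSC, with 7 and 5 genes wholly above qPSC. The 11 genes from squalene on had medians of 0.27 and 0.05, with 9 and 1 genes wholly above. The share of tested genes wholly above qPSC was 11.3% in myCAF and 4.67% in iCAF. The iCAF over qPSC medians without iCAF replicate 3 were 0.20 for the early genes and 0.09 for the late ones. Of these genes 6 and 5 were then wholly above qPSC, against 14.5% of tested genes. The difference between the arms was not tested. Group means ran myCAF, iCAF, qPSC from high to low for 11 of the 19 synthesis genes and myCAF, qPSC, iCAF for 6, with Mvk and Ggps1 the exceptions.

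For iCAF against qPSC with all libraries, 0 members were called either way, against 0% of tested genes called higher and 0.598% lower. An unadjusted p under 0.05 was reached by 4 higher members and 1 lower, against 228 higher and 1623 lower of all 11704 genes. Wholly above qPSC were 6 members, all synthesis genes (Acat2, Mvk, Pmvk, Mvd, Fdps and Msmo1), against 4.67% of tested genes, and wholly below were 2, Npc1 and Soat1, against 23.2%. When iCAF replicate 3 was left out, 11 members lay wholly above, against 14.5% of tested genes, and 2 wholly below, against 25.1%. The median log2 fold change of synthesis genes was 0.13, while that of all tested genes was -0.15, so relative to the other transcripts of these libraries the synthesis genes stood higher than the raw value shows. With each library centred on its median the synthesis median was 0.33 and the all-gene median 0.05. Without iCAF replicate 3, Acat2 and Nsdhl were called higher and 0 members lower, against 0.111% and 1.38% of tested genes, and the synthesis median was 0.13 where the all-gene median was -0.03. With another library left out in its place, the synthesis median was 0.0361 without iCAF replicate 1, 0.0607 without iCAF replicate 2 and 0.0533 without qPSC replicate 3.

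Against myCAF, the iCAF libraries were lower in 29 of the 30 tested sterol genes. They were lower in 8847 of all 11704 tested genes too, whose median was negative. Centring each library on its median changed the sign of 13 members. With all 9 libraries 0 members were called, against 0% of tested genes higher and 0.0598% lower, and an unadjusted p under 0.05 was reached by 14 lower members and 0 higher, against 1814 lower and 284 higher of all 11704 genes. Every iCAF library was below every myCAF library in 17 members, against 18.3% of tested genes, and above in 0, against 4.55%. Leaving out iCAF replicate 3 made these counts 19 members below, against 20% of tested genes, and 2 above, against 13.9%. The synthesis median was -0.20 and the all-gene median -0.15. With each library centred on its median the synthesis median was 0.00 and the all-gene median 0.05. Without iCAF replicate 3, Pmvk and Insig2 were called lower and 0 members higher, against 0.478% and 0.12% of tested genes, and the synthesis median was -0.16 against -0.03 for all genes. The 3 comparisons share their libraries and are not independent of each other.

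The deviation of iCAF replicate 3 followed gene length, which touches every value of iCAF. Against the mean of the other iCAF libraries it was lower in 25 of the 30 tested members and higher in 5. Across the 11646 tested genes with a matched exon length, split into 5 bins of near-equal size from short to long, its median deviation on the log2 scale was 0.06, -0.23, -0.37, -0.51 and -0.67. Among the 30 members the deviation and the exon length had a Spearman rho of -0.64, a description over genes of 1 library. The cause of the deviation was not tested.

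**Figure D4:**
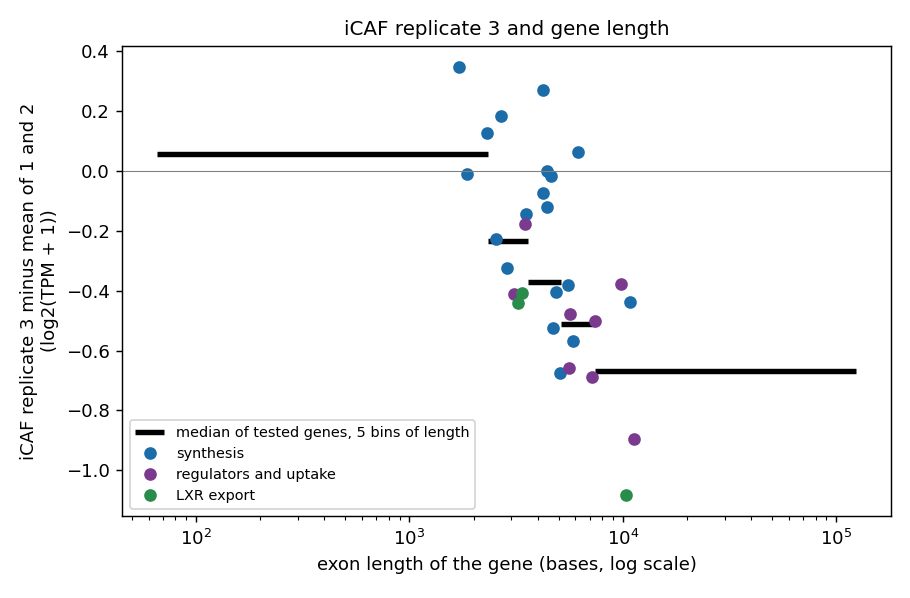
Difference of iCAF replicate 3 from the mean of iCAF replicates 1 and 2 on the log2(TPM + 1) scale (vertical axis) against exon length in bases (log axis) for the 30 tested sterol genes. Black bars are medians of all tested genes in 5 bins of length, falling from 0.06 in the shortest to -0.67 in the longest.

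Sums of cell type markers varied between the groups as well, and the cells behind them were not identified. The 15 fibroblast markers summed to 544 to 642 TPM in qPSC, 334 to 556 in iCAF and 580 to 950 in myCAF libraries, although Col1a2, Lum and Fap were at or near 0 in all libraries. In myCAF replicate 2 the fibroblast sum was 580.3 TPM, inside the qPSC range, but single markers went either way. Postn was 4.64 TPM in that library against 1.24 to 2.38 in qPSC, and Dcn was 59.0 against 81.2 to 134. Keratin markers summed to 1589 to 1687 TPM in qPSC and 1758 to 1815 in myCAF, and 4 genes of dividing cells to 534 to 587 and 598 to 631 TPM. Of 7 leukocyte markers only Cd68 exceeded 0.132 TPM in any library, at 3.98 to 6.68. The part of these shifts in the sterol results was not tested.

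Of the 8 regulator and uptake genes, Insig1, Insig2, Stard4 and Srebf2 lay wholly above qPSC in myCAF, against 11.3% of tested genes. With all libraries 0 of the 8 passed. Insig1, a sterol-sensing anchor of Scap and itself a target of SREBP, lay at 468, 463 and 427 TPM in qPSC, 467, 496 and 361 in iCAF, and 517, 525 and 561 in myCAF. Every myCAF library was above the other 6. The difference from qPSC was 0.24 ± 0.11 on the log2 scale, or 1.18-fold (limma, adjusted p = 0.834, and 0.0476 without iCAF replicate 3). Insig2, its relative, was lower in TPM, at 29.0, 29.2 and 29.5 TPM in qPSC, 27.1, 29.9 and 25.1 in iCAF, and 38.9, 35.7 and 39.2 in myCAF. The qPSC values were nearly identical and myCAF was wholly above the rest. It was 1.29-fold the qPSC level in myCAF, 0.36 ± 0.09 on the log2 scale (limma, adjusted p = 0.241, and 0.0179 without iCAF replicate 3). Against myCAF, iCAF gave a log2 fold change of -0.46 ± 0.09 with all libraries and -0.40 ± 0.06 without replicate 3 (limma, adjusted p = 0.0942 and 0.0356).

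Stard4, a carrier of cholesterol between membranes and a known SREBP target, lay at 73.1, 75.6 and 62.8 TPM in qPSC, 66.9, 74.8 and 44.5 in iCAF, and 89.9, 89.0 and 102 in myCAF. Its myCAF values were above all 6 others, and iCAF replicate 3 was the lowest. The log2 fold change from qPSC was 0.41 ± 0.17, or 1.32-fold (limma, adjusted p = 0.733, and 0.0402 without iCAF replicate 3). Srebf2, the factor most tied to cholesterol synthesis, gave 252, 235 and 233 TPM in qPSC, 231, 237 and 145 in iCAF, and 266, 260.4 and 281 in myCAF. The myCAF values were higher than all qPSC values but by a small margin, 0.17 ± 0.16 on the log2 scale or 1.12-fold (limma, adjusted p = 1, and 0.0873 without iCAF replicate 3). All 3 iCAF libraries lay below all myCAF libraries, a log2 fold change of -0.43 ± 0.16 or 1.35-fold, and -0.20 ± 0.05 without iCAF replicate 3 (limma, adjusted p = 0.238 and 0.101). Srebf1, the factor more tied to fatty acid synthesis, gave 134, 124 and 119 TPM in qPSC, 130.2, 143 and 97.9 in iCAF, and 124, 137 and 129 in myCAF. Its groups overlapped in each comparison.

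Scap, the escort, averaged 46.5 ± 2.09, 41.3 ± 7.98 and 44.0 ± 1.06 TPM in qPSC, iCAF and myCAF (SD, n = 3). Npc1, which lets cholesterol out of lysosomes, averaged 16.2 ± 1.00, 12.4 ± 4.23 and 15.2 ± 0.901 TPM, and Soat1, which stores cholesterol as esters, 58.5 ± 1.42, 52.3 ± 7.67 and 58.8 ± 1.93. For these 3 genes myCAF and qPSC overlapped, and Npc1 and Soat1 were wholly lower in iCAF than in qPSC, where Npc1 in iCAF replicate 3 was 7.50 TPM against 14.9 and 14.7 in the other iCAF libraries. None of the 8 regulator and uptake genes had a positive fold change in iCAF against qPSC, against 22.6% of tested genes. Their median was -0.18, which became 0.02 when each library was centred on its median and -0.03 without iCAF replicate 3.

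The export genes showed no call in any comparison, with or without iCAF replicate 3. Abca1, the exporter that loads cholesterol onto apolipoproteins, lay at 31.1, 30.6 and 25.8 TPM in qPSC, 25.5, 36.9 and 14.0 in iCAF, and 28.9, 31.7 and 34.4 in myCAF. The iCAF libraries held both the highest and the lowest value, and the groups overlapped. Its log2 fold change was 0.12 ± 0.27 in myCAF and -0.28 ± 0.27 in iCAF, each against qPSC (limma, adjusted p = 1 and 0.526). Abcg1, the other main exporter, did not pass the filter, with at most 0.178 TPM and at most 16 implied reads in a library, and was listed at 0 in 5 of the 9 libraries.

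Mylip, a ligase that targets lipoprotein receptors for destruction, was near the filter, at 0.501, 0.557 and 1.00 TPM in qPSC, 0.403, 0.847 and 0.186 in iCAF, and 1.63, 0.249 and 1.32 in myCAF. It rested on 10 to 74 implied reads a library, and its groups overlapped in each comparison. Nr1h2, the LXR found in most tissues, gave 55.6, 52.2 and 51.6 TPM in qPSC, 48.3, 51.7 and 37.4 in iCAF, and 51.0, 50.3 and 52.9 in myCAF. The lowest value was that of iCAF replicate 3, and the ranges of the groups overlapped. Over the 3 tested export genes the median log2 fold change was 0.12 in myCAF and -0.22 in iCAF, each against qPSC, the latter -0.02 when each library was centred on its median and -0.05 without iCAF replicate 3.

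A wider list of 31 other genes of sterol handling was counted for comparison, of which 26 were tested. With all 9 libraries 0 were called in any comparison, and at an unadjusted p under 0.05 in myCAF against qPSC 1 was higher and 1 lower. Its median log2 fold change there was -0.01, with 12 of 26 positive, against 0.25 and 26 of 30 for the members. Of all tested genes 52.0% were positive. Both lists were chosen with earlier results of these data known, so the contrast between them is a description and not a test. Without iCAF replicate 3, Npc2, which hands cholesterol to Npc1 in the lysosome, was called lower in iCAF and in myCAF than in qPSC, with log2 fold changes of -0.36 ± 0.06 and -0.28 ± 0.06 (limma, adjusted p = 0.0313 and 0.0376). No other gene of that list was called in those comparisons.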

How the data were processed

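Stranded mRNA libraries were read as single reads of 50 bases, per the labels' protocols. What the authors deposited is a single table of TPM for 41457 gene symbols. Salmon, R 4.0.1 and DESeq2 are named in the submitters' processing notes, with no step given for each, and the genome build is not given in the sources used here. Exon lengths came from GENCODE M21 (GRCm38), which matched 98.86% of symbols to 1 gene model. TPM times exon length came in whole steps (tolerance 0.05 reads) for 97.8% to 98.1% of genes under 200 reads in each library, which gave the implied reads. Groups came from the sample titles. Limma 3.58.1 (R 4.3.3) was fitted to log2(TPM + 1) of the 9 libraries with a mean-variance trend, and p-values were adjusted by Benjamini-Hochberg over 11704 genes per comparison, threshold 0.05. Fold changes on that scale understate the change of low genes. Errors of fold changes are standard errors. Between replicates, r lay from 0.980 to 0.997.

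The members, the lists and the rule for naming genes were chosen with earlier results of these data known. Values in every library are given for members called in any comparison with or without iCAF replicate 3, for the 5 synthesis, 3 regulator and 2 export members with the smallest p, and for 10 members always named. Genes of the wider sterol list are named only where called. Motifs were read in RefSeq promoters with Python 3.11.15 and pandas 2.3.3, and matplotlib 3.10.9 drew the figures. The procedure was run on simulated reads, drawn independently for each library. No simulated library deviated by gene length, so the run does not show how the fit handles a library like iCAF replicate 3. Alternatives were other scaling, filters, pseudocounts, libraries, a replicate block, no trend and limma-voom on the implied reads. Added after seeing the data were removal of a gene-length trend and its combination, or that of centring, with leaving out iCAF replicate 3.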

Additional observations from a re-analysis of the deposited data

How the results depend on the processing

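No member was called under an alternative with a sign other than its sign with all libraries. In myCAF against qPSC the synthesis median stayed between 0.26 and 0.36 with each myCAF or qPSC library left out in turn. Leaving out an iCAF library cannot change that median, which uses only myCAF and qPSC values. Members called higher went from 0 with all libraries to 14 with only the 6 libraries of the comparison and 4 with the gene-length trend removed. Without iCAF replicate 3 they numbered 16 with that trend removed and 15 with centring. Leaving out 1 library gave 0 to 15 members called, 15 of them without iCAF replicate 3 and 0 for each of the other 8 libraries. The other fits called 0, which are centring, both filters, both pseudocounts, the replicate block, no trend and limma-voom. For iCAF against qPSC, members called higher numbered 1 with the length trend removed, 0 to 2 with 1 library left out, and, without iCAF replicate 3, 3 with the trend removed and 2 with centring. For iCAF against myCAF, members called lower numbered 0 to 4 with 1 library left out (4 without iCAF replicate 2, 2 without iCAF replicate 3 and 2 without myCAF replicate 2), and, without iCAF replicate 3, 3 with the trend removed and 1 with centring.

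Genes called over the whole table, 70, 0 and 7 for iCAF against qPSC, myCAF against qPSC and iCAF against myCAF, ranged over 0 to 194, 0 to 331 and 0 to 281 with 1 library left out. Centring gave 24 and 0 for the 2 iCAF comparisons, no filter 5, 1 and 1, only 6 libraries 30, 378 and 0, and limma-voom 45, 5 and 0. For iCAF against myCAF the stricter filter gave 0, a pseudocount of 0.1 gave 1 and no trend gave 1. Removing the length trend gave 37 and 46 for the comparisons with myCAF. Without iCAF replicate 3 it gave 146, 408 and 80, and centring gave 334 and 49. In the same order the replicate block gave 22, 0 and 0 genes, and 0 members in each comparison. Correlations of same-numbered deviations were 0.17, 0.07 and 0.25 for iCAF with qPSC, and -0.31, 0.01 and 0.03 for myCAF with qPSC. For iCAF with myCAF they were -0.27, -0.35 and -0.31. Different-numbered ones ran from -0.35 to 0.22, -0.24 to 0.27 and 0.07 to 0.31 in the same order. Deviations within a group of 3 sum to 0, so these values cannot decide whether the replicate numbers pair the samples.

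The synthesis median for iCAF against qPSC, 0.13, became 0.33 with centring and 0.22 with limma-voom, and 0.0361 to 0.153 with 1 library left out. For iCAF against myCAF, -0.20 became 0.0017 with centring, -0.11 with limma-voom and -0.10 with the length trend removed, and, without iCAF replicate 3, -0.12 with the trend removed and -0.10 with centring. The regulator and uptake median for iCAF against qPSC became 0.0206 with centring, 0.0363 with the trend removed and, without iCAF replicate 3, 0.0217 and 0.0294 with the trend removed and with centring. For iCAF against myCAF it became -0.11, -0.10, -0.0614 and -0.0406 in the same order, and -0.43 to -0.0992 with 1 library left out. The export median for iCAF against myCAF became -0.10 with the trend removed, -0.61 to -0.0416 with 1 library left out, and, without iCAF replicate 3, -0.0315 with the trend removed and 0.017 with centring. The cause of these shifts was not tested.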
